A study of Mus musculus with 4 samples.

Results

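The secreted and membrane-bound proteins that steer growing axons, and the receptors that read them, were followed as a set of 71 genes in molar mesenchyme of mouse embryos at day 14. The set takes every gene whose name belongs to semaphorin classes 3 to 7, the plexins, Nrp1 and Nrp2, the ephrins and Eph receptors, the netrins with Dcc and Unc5a to Unc5d, the Slits and Robo receptors, and Rgma and Rgmb. These are 71 of the 22072 gene names in the tables, spread over 93 transcript entries. Laser capture was used to cut the molar mesenchyme out of frozen head sections, and upper and lower molars were kept apart. The 4 groups were upper and lower molars of Msx1+/- embryos, which served as controls, and upper and lower molars of Msx1-/- embryos, with 1 library in each. All 4 carry at least 1 mutant Msx1 allele, and the labels give a mixed strain background and do not name the allele. Per the design text, 3 control and mutant pairs were pooled before extraction, so no group has a replicate. Whether both jaws were taken from the same embryos is not stated in the labels.

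Semaphorins signal mostly through plexins, and the secreted class 3 members need a neuropilin as co-receptor. Ephrins and Eph receptors act between touching cells, where each side can signal into its own cell. Netrins attract axons through Dcc and repel them through Unc5 receptors, and Slits repel through Robo receptors. In the tooth germ Sema3a from the mesenchyme is known to keep trigeminal axons out of the papilla until later stages, and many of these proteins also shape vessels, epithelia and mesenchymal condensations.

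Levels are given in FPKM, a measure of fragments corrected for transcript length and library size, which allows levels of different genes to be compared. Where 4 levels are listed, both control libraries come first and both mutant libraries follow, each time with the upper molar before the lower. Differences are on the log2(FPKM + 1) scale, mutant minus control within a jaw or upper minus lower within a genotype. This scale understates changes of weakly expressed genes. A gene was measured when its mean over the libraries was at least 1 FPKM, and it was counted as higher or lower when the difference was at least 1 in size. With 1 library per group these counts have no replicate check and no p-value. Where both mutant values lie above or below both control values, the share of all genes ordered so is not given. Such an order is a description alone. It also held for members where it is not mentioned, such as Epha7, Sema4c and Sema4g.

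Msx1 stood at 170, 184, 126 and 85.9 FPKM, and since the allele is not named this level checks no label. Summed coverage of annotated transcripts ranged from 264 megabases in mutant lower molars to 410 in control upper molars. Over the 10535 measured genes the median genotype difference stood at -0.03 for upper molars against -0.39 for lower ones, so the mutant lower library was shifted downward as a whole. Scaling the libraries by median of ratios moved these medians to 0.00 and 0.01. The 15 markers of dental mesenchyme were measured in full, led by Vim and Msx1, with summed levels of 1160, 1127, 1066 and 806 FPKM. Of these, Dlx2 (56.3, 34.7, 14.7 and 2.66 FPKM), Runx2 and Prrx2 were lower in both jaws and 0 were counted as higher. The shares over all measured genes were 1.59% lower and 0.399% higher. Pax9 (differences of 0.57 and 0.51) and Col1a2 (0.74 and 0.48) lay higher in both jaws of the mutant without being counted. Summed markers of epithelium were 28.4, 45.4, 49.9 and 66.0 FPKM over 12 genes, with Krt5 (7.18, 17.0, 21.3 and 28.1 FPKM) and Krt14 (8.69, 14.8, 13.3 and 14.5 FPKM) highest. Of that list 6 genes were measured, and Krt15 was higher in both jaws (0.865, 1.94, 3.15 and 9.09 FPKM), against that 0.399%. Shh was listed at 0 in at least 1 library and Cdh1 reached at most 0.142 FPKM.

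Of the 71 genes, 53 were measured. In both jaws Sema3d and Epha3 were higher in the mutant, and Sema7a, Unc5b, Efnb2 and Epha2 were lower. That is 2 higher genes against a background of 0.399% of all measured genes, and 4 lower genes against 1.59%. All 6 were also counted in both jaws after each of the 3 rescalings, where the background for lower genes was 1.16% after median of ratios. A further 8 members were counted in 1 jaw, and 39 differed by less than 1 in each. In upper molars 5 members were higher (background 1.07%) and 5 lower (3.26%), and the same genes were counted after median-of-ratios scaling (1.17% and 3%). For the lower jaw the counts were 2 higher (0.864%) and 8 lower (9.44%), and median-of-ratios scaling turned this into 7 higher (2.34%) and 6 lower (3.03%). The 53 genes had a median difference of 0.07 for upper molars and -0.24 for lower ones, against -0.03 and -0.39 over all measured genes. The 18 genes below the filter reached at most 1.99 FPKM in any library and none differed by 1 or more between the genotypes. At such levels the 1 added before the logarithm leaves little room for a difference of that size. Mutant FPKM of Ntn5, for example, was 18.3% of control in upper and 21.4% in lower molars. The highest of the 18 genes was Ephb1 in mutant upper molars, at a difference of 0.93, and Plxnb3, Robo3, Ntn4, Unc5a and Unc5c stayed below 1 FPKM in every library. With limma and both jaws treated as repeats, which leaves few degrees of freedom, 6 members were higher (background 1.19%) and 7 lower (4.36%) at an adjusted p of 0.05, and 8 (2.64%) and 11 (13.1%) at an unadjusted p of that size. In tissue pieces of this kind, fewer cells of a type and less RNA per cell cannot be told apart.

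**Figure D1:**
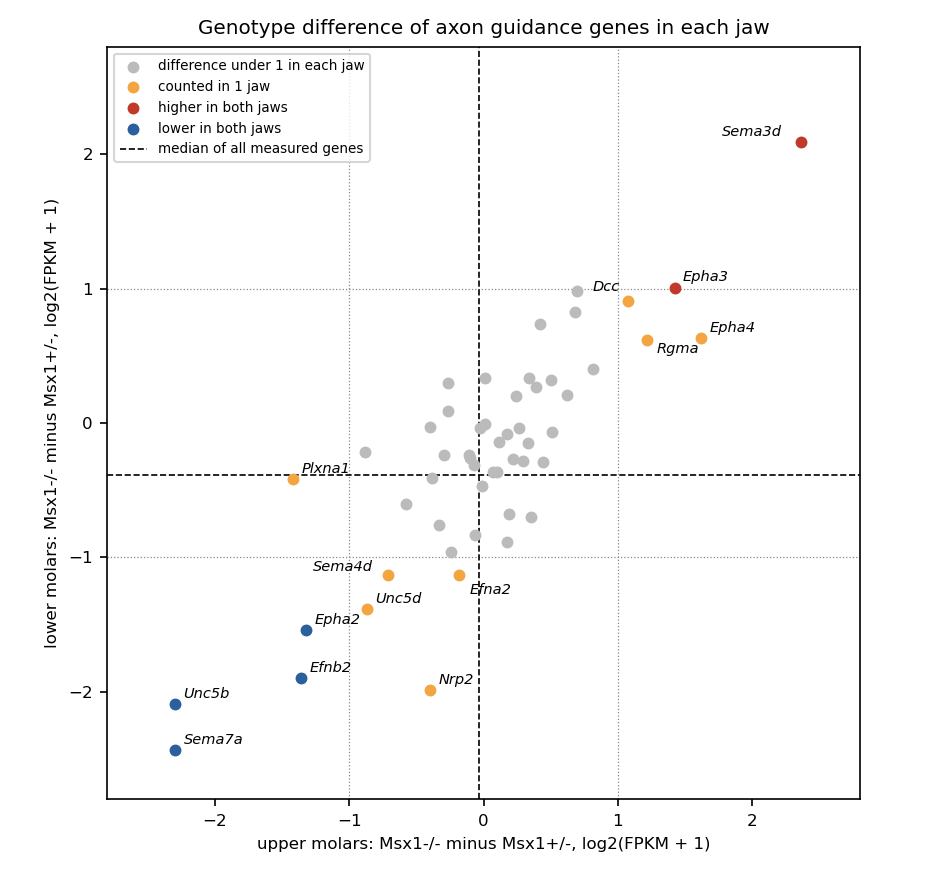
Each point is 1 of the 53 measured guidance genes, with the log2(FPKM + 1) difference between Msx1-/- and Msx1+/- libraries in upper molars on the x axis and in lower molars on the y axis. Dotted lines mark differences of 1, dashed lines the medians of all measured genes (-0.03 and -0.39). Sema3d and Epha3 lie at the upper right, Sema7a, Unc5b, Efnb2 and Epha2 at the lower left.

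The stretches of 250 bases before the annotated start are shown for the 3 genes with the largest differences, Sema3d, Sema7a and Unc5b, and for Epha2, which also carried a match to a searched motif. They come from RefSeq on build GRCm38.p6, whereas the expression tables use mm9, and are written 5′ to 3′ on the gene's strand with motif matches in capitals.
Sema3d, chr5:12382916-12383165, plus strand: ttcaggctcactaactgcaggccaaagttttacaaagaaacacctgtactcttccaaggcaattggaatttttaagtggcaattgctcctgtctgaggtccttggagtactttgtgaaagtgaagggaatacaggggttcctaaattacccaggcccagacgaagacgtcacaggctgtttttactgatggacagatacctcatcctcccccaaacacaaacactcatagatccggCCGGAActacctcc
Sema7a, chr9:57939862-57940111, plus strand: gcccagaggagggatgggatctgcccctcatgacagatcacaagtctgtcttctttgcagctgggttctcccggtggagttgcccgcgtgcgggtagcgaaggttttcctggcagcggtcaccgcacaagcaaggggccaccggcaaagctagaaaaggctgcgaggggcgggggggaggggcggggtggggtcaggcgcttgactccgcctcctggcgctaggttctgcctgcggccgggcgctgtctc
Unc5b, chr10:60831582-60831831, minus strand: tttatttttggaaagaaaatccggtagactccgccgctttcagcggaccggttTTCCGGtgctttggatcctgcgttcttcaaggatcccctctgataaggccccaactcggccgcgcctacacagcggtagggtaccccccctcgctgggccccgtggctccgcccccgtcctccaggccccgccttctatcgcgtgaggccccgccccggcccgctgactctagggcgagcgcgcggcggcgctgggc
Epha2, chr4:141300971-141301220, plus strand: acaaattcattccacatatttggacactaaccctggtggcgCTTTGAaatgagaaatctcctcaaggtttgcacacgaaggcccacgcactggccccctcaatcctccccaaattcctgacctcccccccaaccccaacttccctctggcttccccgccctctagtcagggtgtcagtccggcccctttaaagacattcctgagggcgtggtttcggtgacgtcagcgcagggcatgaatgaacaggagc

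Both strands of these windows were searched for 8 motifs. They were the Msx homeodomain core TAATTG, the general homeodomain core TAATTA, the Lef/Tcf core CTTTGA, the Egr sites GCGTGGGCG and GCGGGGGCG, the AP-1 site TGACTCA and the Ets sequences TTCCGG and CAGGAAGT. The Ets core TTCCGG was found before Sema3d and Unc5b, and it occurs in 12% of all 32851 promoter windows of this length. Counted from the gene's start, the match lies at -14 in Sema3d, where it reads CCGGAA on the gene's strand, and at -197 in Unc5b. The Lef/Tcf core was found before Epha2 and is present in 13.8% of all windows. Shares for the others were 4.84% for TAATTA, 0.536% for GCGTGGGCG, 2.57% for GCGGGGGCG, 4.46% for TGACTCA and 2.69% for CAGGAAGT. TAATTG, present in 7.17% of all windows, was not among the letters shown, nor was it before Epha3 or Efnb2. Such a match is a description of the letters and not a binding site. Promoter windows were found for 60 of the 71 genes. Their median GC content was 64.4% over 78 windows, against 52.4% over all windows, and Sema3d lay below both at 46.8% whereas Unc5b was at 66.8%.

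Among the secreted class 3 semaphorins, Sema3d (chromosome 5, 12383166 to 12588943, mm9) stood at 0.678 and 1.27 FPKM in the control and at 7.64 and 8.67 FPKM in the mutant libraries. The genotypes did not overlap, and the upper molars differed by 2.37 and the lower molars by 2.09. Sema3d was the sole member higher in the mutant under the stricter rule that the lowest mutant value lie at least 1 above the highest control value (background 0.256%). Sema3a, the best-known repellent of dental axons, was level across the libraries (14.7, 17.9, 15.5 and 13.7 FPKM) and differed by 0.07 and -0.36, the latter 0.10 after median-of-ratios scaling. Sema3f, a ligand of Nrp2, was at 6.42, 7.21, 12.1 and 9.84 FPKM and differed by 0.82 and 0.40, the latter 0.84 after that scaling. Both mutant values of Sema3f lay above both control values, and neither difference reached 1. Sema3a made up 63.4% and 64.6% of class 3 FPKM in the control libraries and 43.0% and 41.7% in the mutant libraries. The share of Sema3d went from 2.92% and 4.59% to 21.2% and 26.4%. Sema3b, Sema3c, Sema3e and Sema3g stayed below 1 FPKM in every library.

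The membrane-anchored Sema7a (chromosome 9, 57787942 to 57810672), which signals through integrins and Plxnc1, was far lower in the mutant. It stood at 6.86 and 8.80 FPKM in the control and at 0.603 and 0.812 FPKM in the mutant libraries. Its differences were -2.29 and -2.44, and on the FPKM scale the control was 11.4 times and 10.8 times the mutant. Plxnc1, its plexin receptor, was low in all libraries (1.04, 1.22, 1.19 and 0.721 FPKM). Of its integrin receptor subunits, Itgb1 was at 43.9, 47.8, 40.3 and 25.5 FPKM without being counted, and Itga1 lay below the filter. Under the stricter rule 4 members were lower in the mutant (background 1.19%), and Sema7a was one of them.

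Transmembrane semaphorins of classes 4 to 6 differed less. Sema6a was the most abundant over the libraries and nearly level (22.7, 21.2, 22.8 and 21.1 FPKM), with a difference of 0.01 in upper molars and almost none in lower molars. Sema5a followed (25.0, 19.3, 18.9 and 14.3 FPKM), at -0.39 and -0.41. After median-of-ratios scaling the lower-molar values were 0.47 for Sema6a and 0.05 for Sema5a. Sema4d, a ligand of Plxnb1, was at 5.72, 4.28, 3.09 and 1.41 FPKM. Both mutant values lay below both control values, and its difference of -1.13 counted in lower molars whereas -0.71 in upper molars did not. After median-of-ratios scaling the lower-molar value was -0.80. Sema4f (1.63, 1.85, 2.52 and 3.75 FPKM) and Sema5b (1.26, 0.705, 2.62 and 2.02 FPKM) were not counted as deposited. After that scaling they reached 1.10 and 1.11 in lower molars. Sema4b (5.88, 5.78, 5.57 and 2.805 FPKM) and Sema4c (2.99, 3.02, 2.17 and 1.37 FPKM) were lowest in mutant lower molars, at -0.83 and -0.76 there, or -0.45 and -0.44 after that scaling. Sema4a (0.996 to 1.66 FPKM) and Sema4g (1.73 to 2.56 FPKM) were low in all libraries. Sema6c was highest in mutant upper molars (2.08, 1.58, 3.39 and 1.46 FPKM), as was Sema6d (8.95, 9.71, 12.5 and 7.78 FPKM).

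Of the receptors for semaphorins, the co-receptor Nrp2 (chromosome 1, 62749891 to 62865266) was at 17.9, 22.1, 13.4 and 4.82 FPKM. The mutant lower library was far below the other 3, with a difference of -1.99 in lower and -0.40 in upper molars. The lower-molar value was -1.55 after median-of-ratios scaling. Nrp1 did not pass in either jaw (5.38, 4.54, 6.42 and 3.61 FPKM). Plxna1, a partner of neuropilins, was high in the control upper library alone (26.1, 10.1, 9.16 and 7.34 FPKM). It differed by -1.42 between the genotypes in upper and by -0.42 in lower molars, where median-of-ratios scaling gave 0.02. Plxnb2 (16.9, 14.6, 13.9 and 18.2 FPKM) and Plxnd1, the endothelial receptor of Sema3e (15.8, 14.7, 11.7 and 14.5 FPKM), were the other abundant plexins. Plxna2, Plxna3, Plxna4 and Plxnb1 lay between 0.711 and 3.20 FPKM. The 7 measured plexins besides Plxna1 all differed by less than 0.5 in each jaw as deposited, whereas Plxnb2 reached 0.76 in lower molars after median-of-ratios scaling.

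The endothelial markers Cdh5 (18.9, 18.1, 16.5 and 17.4 FPKM) and Egfl7 (22.6, 11.5, 9.66 and 9.63 FPKM) led a list of 10 measured genes. Of these, 0 were counted in both jaws, against 0.399% of all measured genes higher and 1.59% lower. That list summed to 69.2, 65.6, 56.9 and 53.5 FPKM. Its members did not move together, since Cldn5 (2.09, 5.09, 4.26 and 4.62 FPKM), Tie1, Erg and Tek had higher values in mutant than in control upper molars. Egfl7, like Plxna1, was highest in control upper molars and was counted as lower in mutant upper molars (-1.15). The 5 pericyte markers in the tables, 3 of them measured, were led by Rgs5 (11.8, 10.8, 5.96 and 2.07 FPKM) and Notch3 (10.5, 8.47, 6.19 and 6.40 FPKM). Their sum was 25.98, 24.7, 15.7 and 12.4 FPKM. Rgs5 and Abcc9 (1.08, 1.27, 0.743 and 0.597 FPKM) were lowest in mutant lower molars. Notch3, Cspg4 (2.24, 3.03, 2.42 and 2.52 FPKM) and Kcnj8 (0.335, 1.14, 0.362 and 0.773 FPKM) were not. The part of these cells in the values of Nrp2, Plxna1, Unc5b and Efnb2 was not tested.

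Eph receptors of class A were the most abundant receptors in the mutant libraries and were led by Epha3 and Epha7, which together held 82.3% to 91.2% of class A FPKM in each library. Their class summed to 46.4 and 41.0 FPKM in the control and to 99.5 and 75.9 FPKM in the mutant libraries. Epha3 (chromosome 16, 63545044 to 63863983), a high-affinity receptor of Efna5, was at 19.1, 15.3, 52.8 and 31.8 FPKM. Both mutant values lay above both control values, with differences of 1.42 and 1.01, the latter just past the threshold. After median-of-ratios scaling they were 1.47 and 1.48. Epha7 was at 21.8, 18.4, 35.9 and 37.4 FPKM, with differences of 0.69 and 0.98, the latter just short of the threshold. Epha4, which binds ephrins of both classes, was at 2.11, 2.82, 8.55 and 4.92 FPKM and differed by 1.62 and 0.63. In lower molars Epha7 reached 1.46 and Epha4 1.02 after that scaling.

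Epha2 (chromosome 4, 140857155 to 140885293), an Eph receptor common in epithelia, went the other way. It was at 2.39 and 3.16 FPKM in the control and at 0.356 and 0.429 FPKM in the mutant libraries, with differences of -1.32 and -1.54. The genotypes were fully separated under the stricter rule. Beside it, the summed epithelial markers were 28.4, 45.4, 49.9 and 66.0 FPKM, and their part in the level of Epha2 was not tested. Epha1, Epha5 and Epha6 were below the filter, Epha8 reached at most 0.0084 FPKM, and Epha10 was listed at 0 in all libraries.

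EphB receptors did not pass in a genotype comparison. Ephb4, a receptor of Efnb2, was at 19.2, 20.9, 23.2 and 20.4 FPKM with differences of 0.26 and -0.03, the latter 0.44 after median-of-ratios scaling. Ephb3 was at 12.7, 12.6, 12.7 and 16.2 FPKM, and its lower-molar difference of 0.34 was 0.80 after that scaling. Ephb6, which lacks kinase activity, stayed between 2.30 and 3.57 FPKM. Ephb2 was at 13.7, 13.7, 15.6 and 6.95 FPKM, so that its low value stood in mutant lower molars alone. It was counted between the jaws of the mutant, at 1.06, and this fell short of 1 after each rescaling.

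Among the ligands, Efnb2 (chromosome 8, 8617439 to 8660773), the transmembrane ephrin of arteries and of many mesenchymal borders, was at 19.7 and 27.1 FPKM in the control and at 7.07 and 6.56 FPKM in the mutant libraries. The differences were -1.36 and -1.90, and the genotypes were fully separated. Its share of ephrin-B FPKM was 54.5% and 59.3% in the control and 25.3% and 29.4% in the mutant libraries. Efnb1 (from 7.999 FPKM in mutant lower to 10.1 FPKM in mutant upper molars) and Efnb3 (8.35, 8.70, 10.8 and 7.76 FPKM) stayed within 0.33 in size, and within 0.37 after median-of-ratios scaling. Of the lipid-anchored class A ephrins, Efna4 (between 10.9 and 13.3 FPKM) was not counted and Efna2 (13.3, 15.1, 11.6 and 6.35 FPKM) was lower in lower molars alone, at -1.13. Scaled by median of ratios, the value of Efna2 was -0.69. Efna1 was lowest in mutant lower molars (3.37 FPKM, against 4.71 to 6.0005 FPKM in the others) and Efna3 between 1.45 and 2.04 FPKM. Efna5 was higher in upper than in lower molars of each genotype (13.3, 8.78, 13.1 and 8.52 FPKM), at 0.55 and 0.56, and differed by -0.03 and -0.04 between the genotypes. After median-of-ratios scaling the genotype difference in lower molars was 0.40 and the jaw difference in the mutant 0.24.

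In the netrin system 3 receptors and only 1 ligand were measured. Ntn1, the classical netrin, was at 0.585, 0.600, 0.667 and 0.515 FPKM and below the filter, and Ntn3 was the most abundant (7.21, 3.91, 5.69 and 3.17 FPKM). Ntn5 was near 1 FPKM in the control and near 0.2 in the mutant libraries (1.10, 0.974, 0.202 and 0.208 FPKM). The repulsive receptor gene Unc5b (chromosome 10, 60225343 to 60294329) was at 20.5 and 13.4 FPKM in the control and at 3.38 and 2.37 FPKM in the mutant libraries. Its differences were -2.30 and -2.09, and its values were fully separated. Unc5b made up 78.5% and 75.7% of the summed Dcc and Unc5 FPKM in the control, and 34.9% and 41.1% in the mutant libraries.

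Unc5d was at 3.62, 2.34, 1.53 and 0.277 FPKM, with both mutant values below both control values, and differed by -0.87 and -1.39. Dcc was at 1.24, 0.698, 3.71 and 2.19 FPKM and went the opposite way, by 1.07 in upper and 0.91 in lower molars. After each rescaling Dcc and Epha4 were counted as higher in both jaws, which brought the higher genes to 4 (background 0.683% after median of ratios). Neurons express Dcc strongly, and among 12 neuron markers Isl1, Pou4f1 and Prph were each listed at 0 in at least 1 library. That list, with 1 gene measured, summed to 3.72, 4.43, 2.64 and 5.91 FPKM, with Nefl (0.658, 0.829, 0.550 and 3.52 FPKM) and Nefm highest. Below the filter its markers moved both ways. Syt1 (0.200, 0.211, 0.469 and 0.555 FPKM) lay above and Stmn2 (0.545, 0.753, 0.284 and 0.114 FPKM) below the controls in both mutant libraries. The 8 glia markers summed to 3.59, 2.46, 3.37 and 1.03 FPKM, and none was measured. The part of such cells in the level of Dcc was not tested.

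Slits and Robo receptors showed smaller differences. Slit3 was at 14.5, 18.1, 22.8 and 21.1 FPKM and Slit2 at 6.29, 7.95, 9.34 and 10.2 FPKM. Both were above the controls in each mutant library, by 0.62 and 0.21 for Slit3 and by 0.50 and 0.32 for Slit2, and neither was counted. After median-of-ratios scaling the lower-molar values were 0.68 for Slit3 and 0.77 for Slit2. Slit1 reached at most 0.0740 FPKM and was listed at 0 in control upper and in mutant lower molars. Robo1, the main receptor here with 62.5% to 75.6% of Robo FPKM, was at 28.6, 18.9, 18.8 and 12.1 FPKM and differed by -0.58 and -0.60, the latter -0.14 after median-of-ratios scaling. Robo2 was level (5.15, 4.60, 5.94 and 4.29 FPKM), and the endothelial Robo4 was at 3.96, 3.59, 1.69 and 2.96 FPKM. Rgma, a repulsive ligand of neogenin, was at 2.07, 1.84, 6.13 and 3.36 FPKM and was counted as higher in upper molars (1.21) but not in lower molars (0.62, or 0.97 after that scaling). Rgmb, its relative and a Bmp co-receptor, was at 2.24, 2.76, 1.74 and 0.933 FPKM, with -0.24 in upper and -0.96 in lower molars, the latter just short of the threshold. Median-of-ratios scaling gave -0.67 for Rgmb in lower molars.

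**Figure D2:**
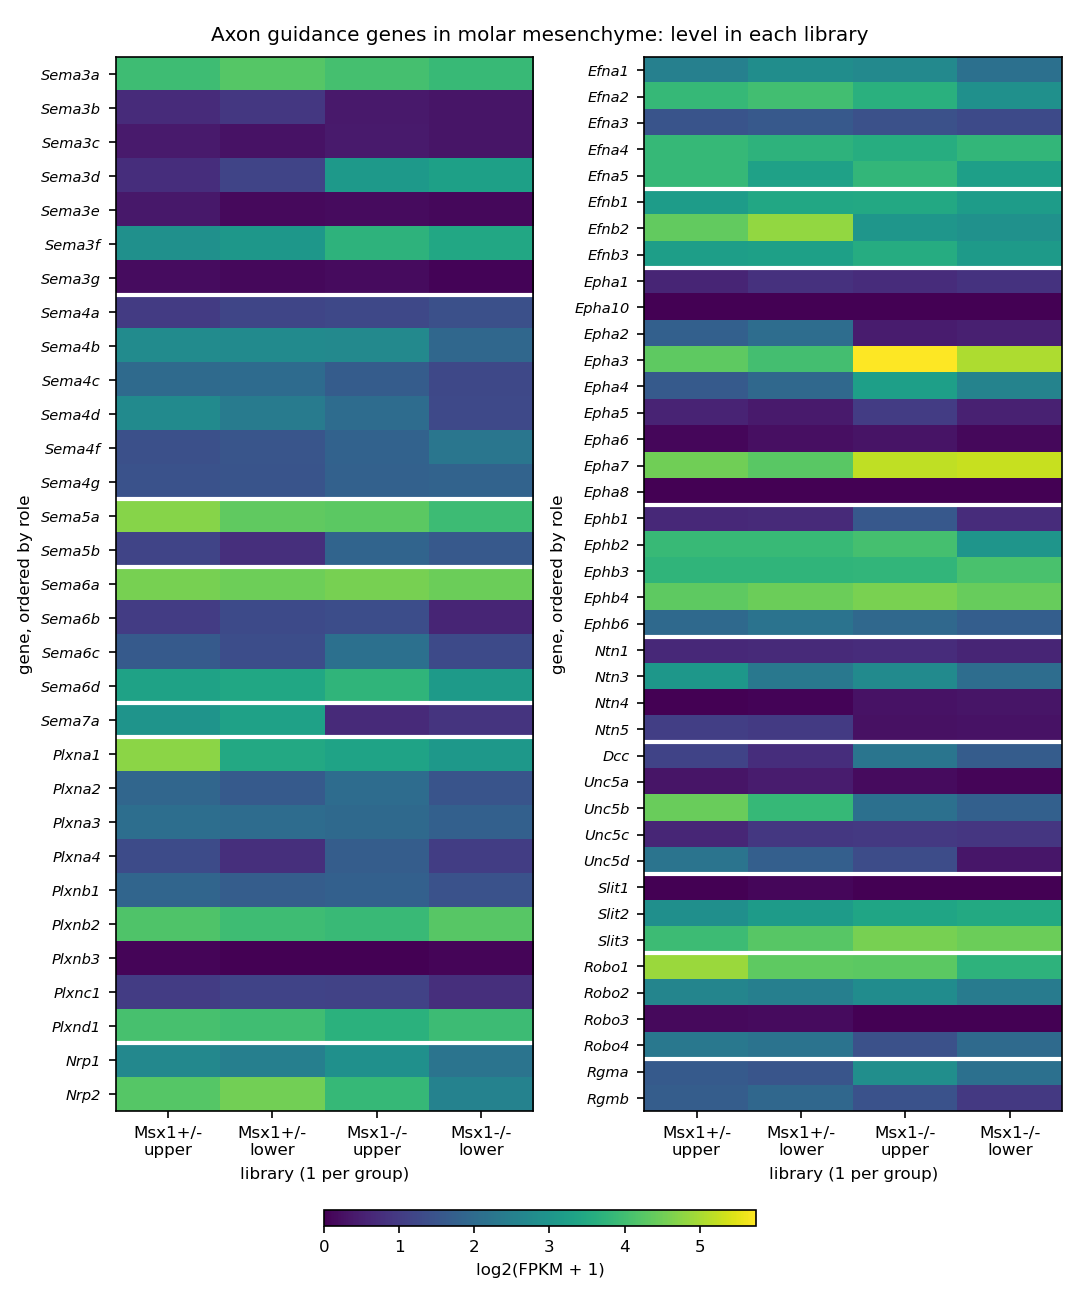
Colour gives log2(FPKM + 1) of each of the 71 guidance genes (rows, grouped by role between white lines) in the 4 libraries (columns). Sema6a, Sema5a and Robo1 are bright in every library, Epha3 and Epha7 are brightest in the Msx1-/- libraries, and Sema7a, Unc5b and Efnb2 are dimmer there.

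Other genes of these pathways came from a pair of written lists. Of 21 measured co-receptors and further ligands, 1 was higher and 1 lower in both jaws, against 0.399% and 1.59% of all measured genes. Flrt2, a membrane ligand of Unc5 receptors, was higher (6.33, 6.80, 21.1 and 22.1 FPKM; 1.59 and 1.57), and Vegfa, whose product binds neuropilins, was lower (11.9, 8.84, 4.93 and 2.74 FPKM). The median of that list was -0.13 in upper and -0.65 in lower molars, beside -0.03 and -0.39 over all measured genes. Its most abundant genes were Itgb1 and Lphn2 (30.4, 31.2, 26.9 and 18.4 FPKM). Of 51 measured genes that act inside the cell, 0 were higher and 3 lower in both jaws, against the same 0.399% and 1.59%. The list medians were -0.21 and -0.49, beside -0.03 and -0.39 over all measured genes. The lower genes were Mical2, of a family of actin-oxidising enzymes that act below plexins (9.97, 10.8, 0.311 and 0.414 FPKM), the Rac-activated kinase gene Pak1 (24.4, 25.1, 5.83 and 7.66 FPKM) and Trim9, whose product binds Dcc (3.16, 4.07, 0.248 and 0.130 FPKM). The differences of Mical2 were -3.07 and -3.06, those of Pak1 -1.89 and -1.59, and those of Trim9 -1.74 and -2.17. The actin-severing Cfl1 (275, 286, 214 and 111 FPKM) and the GTPase gene Rac1 (99.1, 105, 93.5 and 59.5 FPKM) were the most abundant of that list. Cfl1 was counted as lower in lower molars alone, at -1.36, and stood at -0.87 after median-of-ratios scaling.

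Between the jaws, 0 members were counted in the same direction in both genotypes (background 0.133% higher and 0.0285% lower in upper molars). With limma over the 4 libraries 0 members passed an adjusted p of 0.05 between jaws (background 0.645% higher and 0.161% lower), and 6 higher and 0 lower ones had an unadjusted p under 0.05, against 4.31% and 0.94% of all measured genes. Within the control, Plxna1 alone was counted as higher in upper molars, at 1.28 (background 1.48%), and 0 members as lower (0.218%). Within the mutant, Nrp2 and Ephb2 were higher in upper molars (background 3.22%), at 1.30 and 1.06, and 0 were lower (0.408%). After median-of-ratios scaling Nrp2 alone was counted there, against 1.29% of all genes higher and 0.949% lower. Unc5d, at 0.99, was just short of the threshold. Ntn3 was higher in upper molars of each genotype without reaching 1, at 0.74 and 0.68, the latter 0.40 after median-of-ratios scaling. The genotype difference was more positive in upper molars by at least 1 for Nrp2, Ephb2 and Sema6b (3 members, background 5.6%) and more negative for 0 (1.31%). After median-of-ratios scaling Nrp2 remained on the positive side (1.52%), and Plxna1 and Robo4 stood on the negative side (2.86%). These jaw comparisons use the same libraries as the genotype comparisons, so a low mutant lower value of Nrp2 enters both.

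Several transcript entries were listed for 13 members. For Plxnb2 the gene total was steady while the split between its entries was not. The entry of 6497 bases, with the more distant start (chromosome 15, 88985979 to 89011218), held 82.0% of Plxnb2 FPKM in control upper and 65.5% in mutant upper molars, against 23.8% and 0.00217% in the lower molars. The entry of 6432 bases (88985979 to 89004280) was at 3.04, 11.1, 4.80 and 18.2 FPKM, lower in upper molars of both genotypes. Efna5 also split by jaw, since its entry of 5178 bases held 48.9% and 66.4% in upper and 8.01% and 24.5% in lower molars of control and mutant. For Epha7 the full-length entry of 6732 bases held 92.8% to 95.5% of FPKM in each library. Its short entry of 3272 bases was at 1.28, 1.09, 2.59 and 1.67 FPKM. For Nrp2 the most abundant of 6 entries, of 6724 bases, was at 10.8, 10.6, 6.46 and 2.52 FPKM. The entry of 4696 bases, which ends earlier in the gene, was at 4.37, 4.83, 3.04 and 2.29 FPKM. Entries of a gene share most of their sequence, the tables give no error for the split, and 16 of the 35 entries of these members were under 0.001 FPKM in at least 1 library.

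**Figure D3:**
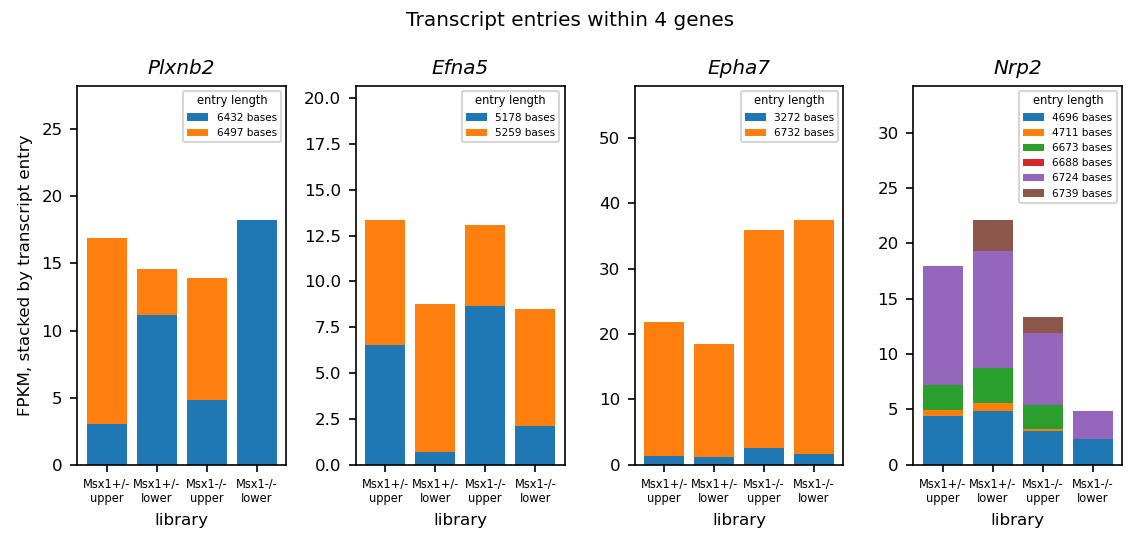
Stacked bars give FPKM of each transcript entry, named by its length, in the 4 libraries for Plxnb2, Efna5, Epha7 and Nrp2. The Plxnb2 total stays between 13.9 and 18.2 FPKM while the longer entry dominates in upper and the shorter in lower molars, and the Nrp2 total is lowest in the Msx1-/- lower library, at 4.82 FPKM.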

How the data were processed

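Laser-captured molar mesenchyme gave total RNA, and cDNA was made with a NuGEN Ovation kit, per the labels' protocols; strand is not stated. The submitters' processing notes name Bowtie 0.12.7, TopHat 1.4.1 and build mm9. Per the file headers the deposited tables are Cufflinks output (version: not stated) with FPKM and a coverage signal for 28107 RefSeq transcript entries. The median ratio of deposited coverage to FPKM was between 0.812 and 1.09 in the libraries. Whole counts were not recovered, so no counting interval is given. The series title says wild type where the labels say Msx1+/-, and the labels were followed.

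FPKM was summed per gene name, without 66 names with a failed estimate and 717 of small RNAs; none of the 71 genes was among them. Genes averaging 1 FPKM or more (10535) were kept, and log2(FPKM + 1) differences were computed from the deposited FPKM with pandas 2.3.3. As an alternative, limma 3.58.1 fitted genotype and jaw as additive terms, which treats the jaws as repeats. Counting and limma were tested on simulated data. Further alternatives were pseudocounts of 0.1 and 5, no filter or a mean of 5 FPKM, 3 rescalings, the most abundant transcript alone, full separation and a threshold of 1.5.

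Members counted in a comparison, within 0.1 of the threshold or among the 3 most abundant of a role were named, with the 2 most abundant genes of each list and those counted in both jaws. The members, lists and motifs were chosen with earlier results of these data known. The level of 1 neuron marker is not reported here.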

Additional observations from a re-analysis of the deposited data

Results flagged for a closer look

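Ephb2 and Sema6b stood out because the genotype difference had opposite signs in the jaws. The gap between jaws was not tested, since each group is 1 library. For Ephb2 the upper-molar value was 0.18 and the lower-molar value -0.89. Sema6b (1.02, 1.47, 1.58 and 0.518 FPKM) stood at 0.35 in upper molars, against -0.70 in lower molars. After median-of-ratios scaling the values were 0.22 and -0.44 for Ephb2 and 0.37 and -0.48 for Sema6b, so the gap was below 1 for both.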

How the results depend on the processing

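No paired analysis was possible because the labels number no replicates and each group is 1 library. Sema3d, Sema7a, Unc5b and Efnb2 kept direction and stayed past the threshold in both jaws under every rescaling and pseudocount and with the most abundant transcript alone. Counts depended on the setting, and the share of all genes counted in the same way stands beside each in percent. Genes higher in both jaws went from 2 (0.399%) to 4 with a pseudocount of 0.1 (0.826%) and with each rescaling (0.683% to 0.788%). With limma they went to 6 (1.19%). They fell to 1 with a pseudocount of 5 (0.133%), a mean of 5 FPKM (0.45%), a threshold of 1.5 (0.171%) or full separation (0.256%). Genes lower in both jaws went from 4 (1.59%) to 7 with limma (4.36%). They went to 2 with a mean of 5 FPKM (1.99%) or a threshold of 1.5 (0.683%). In upper molars the higher genes went from 5 (1.07%) to 2 (pseudocount of 5 at 0.38%, threshold of 1.5 at 0.37%) or 1 (mean of 5 FPKM at 1.03%). The lower genes in upper molars went from 5 (3.26%) to 3 (mean of 5 FPKM at 3.94%) or 2 (threshold of 1.5 at 1.43%). In lower molars the higher genes went from 2 (0.864%) to 5 (pseudocount of 0.1 at 1.67%) or 7 (each rescaling at 2.34% to 2.57%). They fell to 1 with a pseudocount of 5 (0.275%), a mean of 5 FPKM (0.844%) or a threshold of 1.5 (0.37%). The lower genes there went from 8 (9.44%) to 12 (pseudocount of 0.1 at 16.2%), 4 (pseudocount of 5 at 3.04%, mean of 5 FPKM at 13.6%) or 5 (threshold of 1.5 at 2.25%). Genes higher in upper molars of the mutant went from 2 (3.22%) to 7 with a pseudocount of 0.1 (7.49%). They fell to 1 with each rescaling (1.29% after median of ratios). With a pseudocount of 5 (0.873%) or a threshold of 1.5 (0.617%) they fell to 0. Genes higher in upper molars of the control went from 1 (1.48%) to 0 with a threshold of 1.5 (0.56%). With the most abundant transcript alone, Plxnb2 made 1 gene lower in upper molars of the control (0.892%), of the mutant (0.854%) and of both (0.0759%). The median difference in lower molars went from -0.24 to -0.11 (pseudocount of 5), -0.10 (no filter), 0.16 (median of ratios), 0.19 (upper quartile) and 0.17 (common total), and in upper molars from 0.07 to 0.18 (upper quartile). Over all measured genes the lower-molar medians were -0.22, -0.04, 0.01, 0.03 and 0.01 under the same settings, against -0.39 as deposited. The upper-molar median of all measured genes with the upper quartile was 0.09. Median of ratios divided the control lower library by 1.13 and the mutant lower library by 0.807. The cause of these changes was not tested. With a pseudocount of 5, 9 values of single genes fell below the threshold: Epha2 (-0.46 upper, -0.59 lower), Dcc (0.48), Epha4 (0.93) and Rgma (0.65) in upper molars, and Epha3 (0.86), Efna2 (-0.82), Sema4d (-0.53) and Unc5d (-0.48) in lower molars.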

Other observations

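Single genes of the bone and cartilage lists were counted in both jaws, against 0.399% of all measured genes higher and 1.59% lower. Of 9 osteoblast markers 6 were measured, and their sum was 178, 214, 254 and 232 FPKM, led by Col1a1 and Alpl. Ibsp, a bone matrix sialoprotein gene, was higher in both jaws of the mutant (4.25, 2.40, 19.1 and 9.21 FPKM), and so was Ifitm5 (0.681, 1.44, 4.11 and 5.44 FPKM). Spp1, which encodes osteopontin, was lower (5.70, 6.92, 0.0217 and 0.0213 FPKM). Of 8 cartilage markers 3 were measured, with sums of 6.84, 5.63, 14.3 and 21.2 FPKM. Hapln1, a link protein gene of cartilage matrix, was higher in both jaws (1.30, 1.70, 3.93 and 10.3 FPKM). Col2a1, which had the next highest mean, was below Hapln1 in mutant lower molars and above it in the other 3 libraries (2.03, 1.98, 4.59 and 7.198 FPKM).

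Blood and muscle lists, with 10 macrophage, 6 erythroid and 2 skeletal muscle markers measured, had 0 genes counted in both jaws. Over all measured genes the shares were 0.399% higher and 1.59% lower. The 10 macrophage markers, led by Fcer1g and Tyrobp, summed to 35.5, 46.7, 42.9 and 54.8 FPKM. The 8 erythroid markers, led by Hbb-y and Hba-x, summed to 755, 931, 520 and 674 FPKM. The 8 skeletal muscle markers, led by Chrna1 and Tnnt1, summed to at most 5.54 FPKM. The part of these cells in the guidance genes was not tested.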
